A study of Mus musculus with 2 samples.

Results

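The members described here are the STAT5 peaks that lie at the ends of protein-coding genes. A deposited peak was a member when its midpoint lay at most 1 kb from the start or the far end of a gene listed as protein-coding in a RefSeq table of GRCm38.p6, the assembly behind mm10. The rule found 940 members among the 5901 peaks on assembled chromosomes, out of 5908 peaks in the list (15.9%, exact Clopper-Pearson 95% interval 15 to 16.9). Together they marked 1037 of 21779 protein-coding genes. The share of all protein-coding genes marked, 4.76% (4.48 to 5.05), is the background for every gene list below. Intervals on shares cover counting error only.

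The peaks came from 1 STAT5 chromatin immunoprecipitation library. The cells were taken from lymph nodes of a leukemic C57BL/6 mouse of the genotype Stat5b-CAxBlnk+/-, labelled as B cell progenitor leukemia. Stat5b-CA is known as a constitutively active form of STAT5b, and Blnk, of which the label gives 1 intact copy, encodes a signalling adaptor of the pre-B cell receptor. Before fixation in 1% formaldehyde for 10 minutes, the cells were exposed to murine IL7 (10 ng/mL, 37 °C) over 30 minutes. The second library was input from cells of the same genotype, IL7 treatment and fixation, made without antibody. There was no replicate, no library without the transgene and none without IL7, and the sources used here give neither the promoter that drives the transgene nor the age of the mouse. The file gives positions only, so depth and peak height are unknown. A gene without a member is one where no peak passed a threshold that is not stated, and binding in fewer cells and weaker binding in each cell cannot be told apart.

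The IL7 receptor and its relatives signal through JAK kinases, which phosphorylate STAT proteins. STAT5 dimers then enter the nucleus and bind a palindrome, the GAS element, written TTCNNNGAA. IL7 and STAT5 are known for driving survival and growth of B cell progenitors, and genes of the SOCS family are known STAT5 targets whose products damp the same receptors.

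The sequences below show that element in promoters that a member overlapped. They are RefSeq sequence of GRCm38.p6, written 5′ to 3′ along the gene's strand, with each TTCNNNGAA match in capitals. All come from windows of 250 bases before to 50 after a tabulated transcription start, and each capital stretch named here lies inside the peak interval. The genes were taken from lists of cytokine signalling, survival, B lineage and TNF pathway genes, plus Zfp398, the site-bearing gene outside those lists that stood earliest in the deposited order. Cish and Socs3, which encode inhibitors of cytokine receptors, are shown first, since Cish carries a pair of sites in tandem at its start.
Cish (chr9:107296619-107296678, plus strand): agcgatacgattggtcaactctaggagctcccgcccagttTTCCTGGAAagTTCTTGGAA
Socs3 (chr11:117969472-117969560, minus strand): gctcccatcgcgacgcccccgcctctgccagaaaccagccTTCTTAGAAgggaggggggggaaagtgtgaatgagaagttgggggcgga

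The next set is from receptors: Il18r1 encodes a subunit of the IL18 receptor and Csf2rb2 the IL3-specific form of the beta chain.
Il18r1 (chr1:40465756-40465835, plus strand): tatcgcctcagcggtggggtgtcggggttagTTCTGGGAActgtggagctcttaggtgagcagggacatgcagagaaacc
Csf2rb2 (chr15:78305702-78305776, minus strand): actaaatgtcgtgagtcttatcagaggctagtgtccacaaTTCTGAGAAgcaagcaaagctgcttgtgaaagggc

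Bcl6 and Irf8 encode transcription factors of B cells, and Irf8 also shows a pair of sites. The windows of Lta, Il18r1 and Ripk1 hold 2 sites as well, of which the printed stretch shows 1.
Bcl6 (chr16:23988922-23989010, minus strand): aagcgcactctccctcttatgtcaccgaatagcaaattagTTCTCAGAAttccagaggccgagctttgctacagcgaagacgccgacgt
Irf8 (chr8:120736165-120736253, plus strand): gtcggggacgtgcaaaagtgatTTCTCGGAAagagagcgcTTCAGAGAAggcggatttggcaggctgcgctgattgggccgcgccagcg

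Lta and Ltb encode lymphotoxins, Fas a death receptor and Ripk1 a kinase downstream of TNF receptors. These 4 show the site in TNF pathway promoters.
Lta (chr17:35205332-35205407, minus strand): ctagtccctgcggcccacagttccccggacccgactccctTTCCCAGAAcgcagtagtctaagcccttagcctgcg
Ltb (chr17:35194295-35194383, plus strand): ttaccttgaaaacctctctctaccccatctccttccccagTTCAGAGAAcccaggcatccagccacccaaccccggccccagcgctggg
Fas (chr19:34290526-34290614, plus strand): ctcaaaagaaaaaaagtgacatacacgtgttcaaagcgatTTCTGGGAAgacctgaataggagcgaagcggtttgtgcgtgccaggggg
Ripk1 (chr13:34002726-34002814, plus strand): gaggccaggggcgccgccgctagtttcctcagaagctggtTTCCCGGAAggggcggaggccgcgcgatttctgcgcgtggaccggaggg

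Zfp398 encodes a zinc finger protein, and the outermost end of Zfp786 on its start side lay 596 bp from the midpoint of the same peak. The nearest tabulated transcription start of Zfp786 was 5096 bp from it.
Zfp398 (chr6:47835514-47835602, plus strand): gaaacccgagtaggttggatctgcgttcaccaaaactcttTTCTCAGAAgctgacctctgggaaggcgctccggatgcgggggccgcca

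The site lay close to the peak midpoint in several of these: 2 bp from it in Irf8, 3 bp in Cish, 11 bp in Csf2rb2 and 27 bp in both Il18r1 and Fas. It lay farther away in the wide peaks of Ripk1 (162 bp), Bcl6 (177 bp) and Socs3 (178 bp). Promoter windows of Ifnar2 and Il7r were also overlapped by a member and hold TTCNNNGAA, but outside the peak interval.

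Members lay at transcription starts far more than at the other end of genes. The side could be assigned for the nearest end of 761 members, and 667 of them (87.6%, 85.1 to 89.9) were nearest a start and 94 a far end. For the other 179 members the promoter table did not assign a side. Distances from a start are counted from the outermost end of the gene on its start side. The nearest start of the same gene in the promoter table can lie closer to the peak or far from it. It was 39921 bp away for Lifr, 49189 bp for Pou2f2 and 6374 bp for Aars. At starts the median distance was 196 bp (quartiles 82 and 502), and 58.8% of these members lay within 250 bp. At far ends the median was 377.5 bp, and 26.6% lay within 250 bp. Around a start, members lay on both sides, with 346 of 667 outside the gene.

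Over the 17492 genes with an assigned side, 743 starts (percentage marked 4.25%) and 116 far ends (0.663%) had a peak within 1 kb. The density of peaks was highest in the 100 bp before the start, at 7.15 peaks per 1000 starts. From 2 to 5 kb away it averaged 0.387 per 1000 starts and 100 bp. Far ends had 0.343 peaks per 1000 ends and 100 bp within 1 kb, and 0.400 from 2 to 5 kb, so the density was not higher at the far end than in its surroundings.

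**Figure D1:**
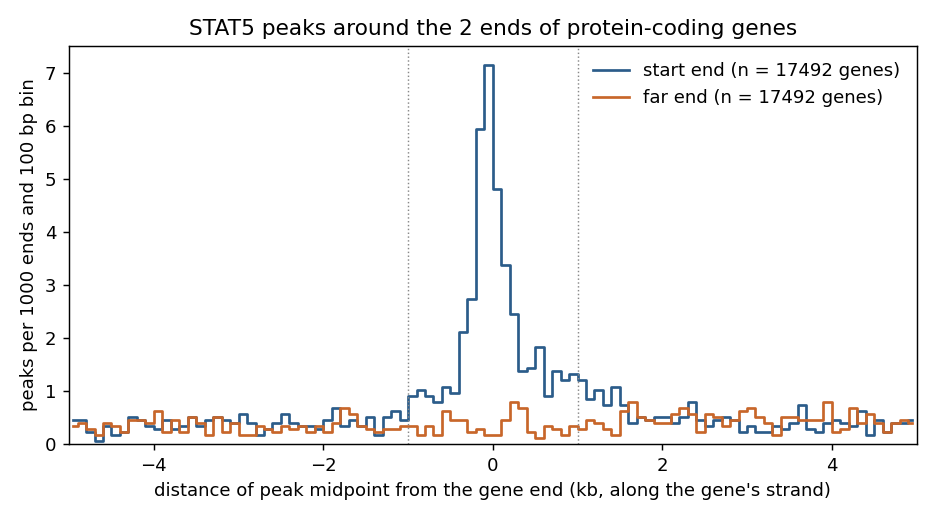
Peaks per 1000 gene ends in bins of 100 bp, by distance of the peak midpoint from the start end (blue) or the far end (orange) of 17492 protein-coding genes, in kb along the gene's strand with positive distances downstream; dotted lines mark the 1 kb limit of membership. The start profile reaches 7.15 just before the start and falls to an average of 0.387 beyond 2 kb, while the far-end profile stays at or below 0.800.

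Of the 94 members nearest a far end, 83 had neither a tabulated start nor an end of unassigned side within 1 kb. They included the peak 352 bp inside the far end of Id3, an inhibitor of E proteins, and the peak 344 bp from the far end of Junb, an AP-1 subunit gene named after its values were seen. Others lay 481 bp from the far end of Il6ra, which encodes the IL6 receptor, and 262 bp from that of Vpreb3. The peak at the far end of Tgfb1 was 794 bp away. Some of these genes are short: the nearest tabulated start of the same gene was 1218 bp from the Id3 peak. It was 1619 bp away for Vpreb3, but 18869 bp for Tgfb1 and 43391 bp for Il6ra.

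Cytokine receptor genes had one of the highest shares of marked members. Of 34 receptors listed, 11 were marked (32.4%, 17.4 to 50.5), which is 6.79 times the share of all genes. Receptors that signal through STAT5 included Il7r, with a peak (chr15:9529543-9529936) 202 bp inside the gene start, and the beta chain genes Csf2rb (115 bp from an end) and Csf2rb2 (22 bp). The IL12 receptor gene Il12rb2 had 2 members, 22 and 764 bp inside its start. Il10ra, Il10rb, Il18r1, Il6ra, Il1r1, Lifr and the interferon receptor gene Ifnar2 were the others. The median distance from a receptor gene's end to the nearest peak was 8.97 kb, against 118.3 kb for all protein-coding genes.

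Among the transducers, 2 of 11 JAK and STAT genes were marked (18.2%, 2.28 to 51.8). A peak lay 144 bp outside the start of Stat3 and another (chr10:128270171-128270611) 107 bp outside that of Stat2, a transducer of interferon signals. Neither Stat5a, Stat5b nor a JAK gene had a member.

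Feedback inhibitors were marked at a like rate, 5 of 16 (31.2%, 11.0 to 58.7), all of them in the SOCS family. The Cish peak was centred 7 bp inside the start, and Cish had 6 further peaks inside the gene or within 20 kb. Socs2 had a peak 409 bp from an end and 4 further peaks. Socs1 had one 137 bp outside its start. Socs3 was marked at both ends, 998 bp inside the start end of the gene table and 331 bp beyond the far end. The first of these lay 28 bp from a start in the promoter table, which lists more than the outermost start of a gene. Socs4 had a peak 800 bp outside its start, 741 bp inside the neighbouring Wdhd1. Socs5, Socs6, Socs7, the Pias genes, Sh2b3 and the phosphatase genes of the list had none.

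Survival and cell death genes were marked in 5 of 32 cases (15.6%, 5.28 to 32.8). Fas had a peak 50 bp outside its start, and Casp8, the caspase that death receptors activate, one 359 bp inside. The nearest Casp8 start in the promoter table was 6910 bp from that peak. Bcl2, which encodes a survival protein, had one 277 bp inside its start and 5 further peaks. Birc3 and Bmf were the other 2. Of cell cycle genes 3 of 42 were marked (7.14%, 1.5 to 19.5), but 6 of 42 (14.3%) by any overlap of a peak with the 1 kb window and 7 of 42 (16.7%) within 2 kb, where 5.08% and 6.46% of all genes were. The 3 were the D-type cyclin genes Ccnd2 and Ccnd1, 286 and 901 bp from an end, and Cdkn2d, whose far end shares a peak with the start of Kri1.

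B lineage transcription factor genes were marked in 10 of 40 cases (25%, 12.7 to 41.2), and 12.5% within 500 bp. Bcl6, a repressor, carried the earliest of these peaks in the deposited order, place 47 of 5908, 77 bp inside its start. The E protein inhibitor gene Id2 had a peak 523 bp outside its start, Irf8 one 151 bp outside, and Pou2af1, a B cell coactivator, one 476 bp outside. Tcf4, an E protein gene, had a peak 877 bp inside one end and 7 further peaks. Spib, Pou2f2, Klf2, Klf3 and Id3 completed the group. Ebf1, Pax5 and Ikzf1, which set up B cell identity, had no member. The list's median distance to the nearest peak was 7.41 kb, the shortest of the 39 lists and families.

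For the pre-B and B cell receptor, 6 of 35 genes were marked (17.1%, 6.56 to 33.6). They included components of the surrogate light chain and its partner: Igll1 had a peak 137 bp outside its start, Vpreb2 one 778 bp outside and Cd79a one 49 bp outside. The nearest Vpreb2 start in the promoter table was 1898 bp from the Vpreb2 peak. Rasgrp1, which activates RAS, had a peak 153 bp outside its start at place 54. Vpreb3 and Pik3ap1 were the other 2. Blnk, the mutated adaptor, had none at its ends. Among B cell surface genes 6 of 32 were marked (18.8%, 7.21 to 36.4), among them Cd69, Cd40, Icam1, Ms4a1 and Icosl. Icam1, an adhesion molecule, had its peak 31 bp outside the start.

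In the NF-kB and TNF group 5 of 34 genes were marked (14.7%, 4.95 to 31.1): Lta, Ltb, Ripk1, Traf6 and Nfkbid. The Lta peak stood second in the deposited order and was 706 bp wide. Cytokine and chemokine genes had 2 of 34 marked (5.88%, 0.720 to 19.7), Osm and Tgfb1. Osm, which encodes oncostatin M, had 2 members, 40 and 743 bp outside one end.

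Interferon response genes were marked in 11 of 36 cases (30.6%, 16.3 to 48.1), and 19.4% within 500 bp, against 3.53% of all genes. Irf1, Irf2 and Irf9 encode factors that regulate this response, and their peaks lay 46 bp outside, 249 bp outside and 106 bp inside the start. Samhd1, which hydrolyses nucleotides, had 2 members, 560 bp inside and 209 bp outside its start. Parp14, Parp9 and Dtx3l form a block of neighbours described below, and Psmb8 and Tap1, a proteasome subunit and a peptide transporter, share 1 peak. Oasl2 and Ifit3 were the other 2. MHC and antigen presentation genes had 3 of 23 (13.0%, 2.78 to 33.6): H2-DMb2, H2-Ab1 and Ifi30.

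Genes of general cell functions ranged from above to near the background. Aminoacyl-tRNA synthetase genes had 5 of 20 marked (25%, 8.66 to 49.1), namely Tars, Aars, Vars, Hars and Yars. The list held 37 symbols, older and newer names of the same genes among them, and 20 matched the gene table. The Tars peak, 243 bp outside the start, stood at place 121, while those of Vars and Yars stood at 5406 and 5870. Translation factor genes had 6 of 40 (15%, 5.71 to 29.8), among them Eif5a with a peak 139 bp inside its start. Chromatin regulator genes had 7 of 47 (14.9%, 6.20 to 28.3): Nsd3, Hdac1, Suz12, Arid1b, Tet2, Kmt2a and Kdm5a. Cholesterol and fatty acid synthesis genes had 4 of 30 (13.3%, 3.76 to 30.7), Scd1, Acly, Mvk and Mvd. Proteasome subunit genes had 6 of 48 (12.5%, 4.73 to 25.2) and chaperone genes 4 of 33 (12.1%, 3.40 to 28.2).

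Shares close to 4.76% were found for cytosolic ribosomal protein genes (5 of 86, 5.81%), mitochondrial ribosomal protein genes (4 of 78, 5.13%), solute carriers (17 of 337, 5.04%), basal transcription and Mediator genes (2 of 40, 5.0%), histones (3 of 76, 3.95%) and Tmem genes (8 of 235, 3.40%). Zinc finger genes named Zfp had 25 of 397 (6.30%, 4.12 to 9.16). Splicing genes had 4 of 41 (9.76%), oxidative phosphorylation genes 4 of 41 (9.76%), trafficking and lysosome genes 4 of 46 (8.70%), DNA replication and repair genes 4 of 51 (7.84%) and glycolysis and nutrient metabolism genes 1 of 36 (2.78%). In all, the interval lay wholly above the background for 11 of the 29 lists written by symbol. For 10 of them, all but the NF-kB and TNF list, it also lay above 5.10%, the share without olfactory and vomeronasal receptor genes, an alternative chosen after the data were seen. Lists overlap in part, and neighbouring genes can share a peak.

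For markers of other blood cells the lists were short, and each interval held the share of all genes. Of T cell genes 2 of 27 were marked (7.41%, 0.910 to 24.3), Lcp2 and Cd3d, and 18.5% were within 2 kb, against 6.46% of all genes. Of myeloid genes 1 of 25 was (4.0%, 0.101 to 20.4), Fcgr3, and of erythroid and megakaryocyte genes 1 of 19 (5.26%, 0.133 to 26.0), Hbb-bt. None of 20 stromal and endothelial, 25 neuronal or 25 liver genes was marked, nor any of 1105 olfactory receptor, 350 vomeronasal receptor or 49 keratin genes. The intervals reached 16.8% for stromal and endothelial, 13.7% for neuronal and for liver and 7.25% for keratin genes, so each held the share of all genes. Only those of olfactory (up to 0.333%) and vomeronasal receptor genes (up to 1.05%) lay below it. A peak does not show that a gene is expressed, so these counts do not measure cell content.

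**Figure D2:**
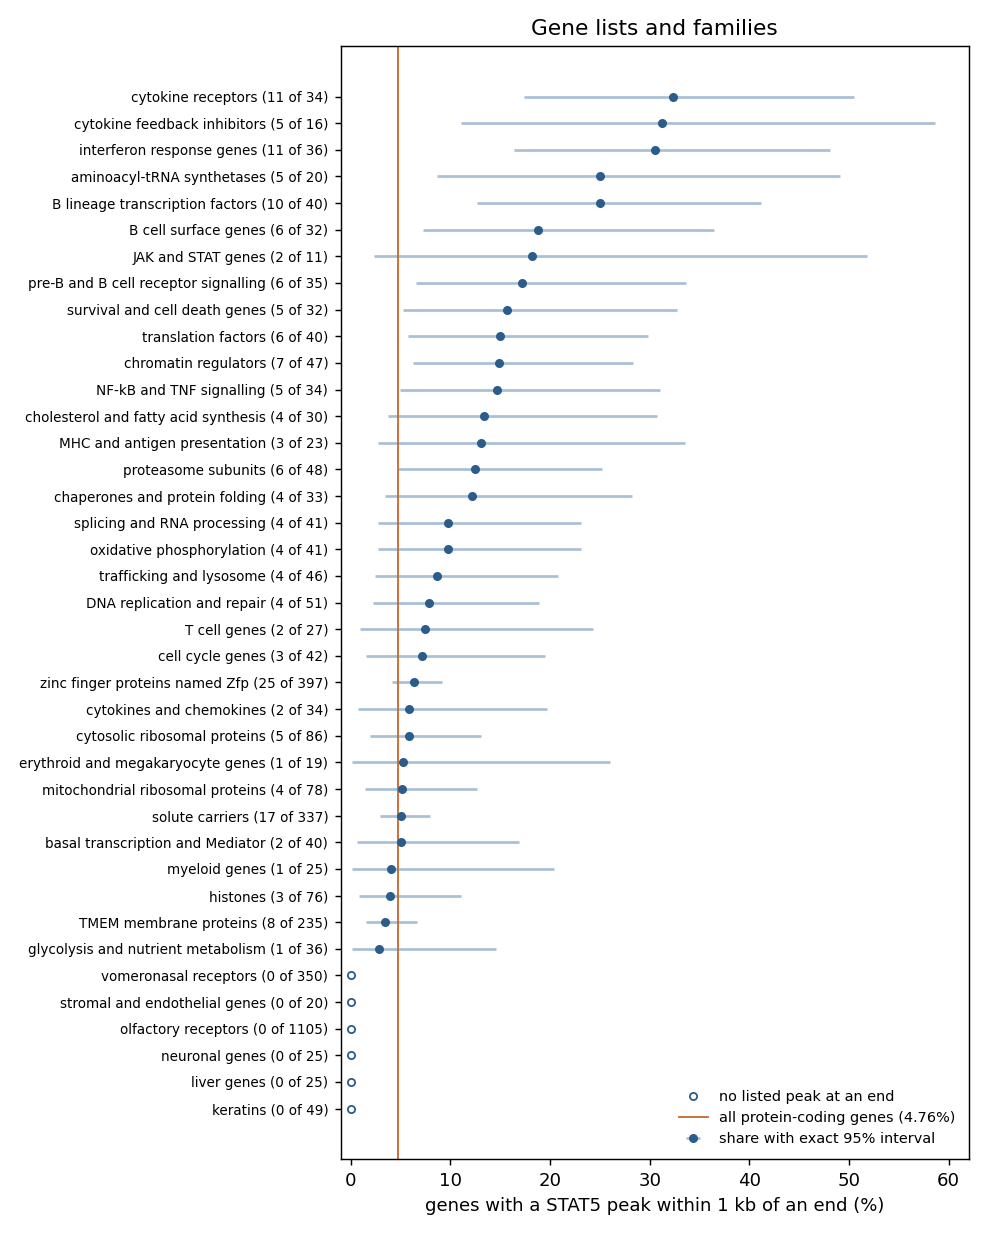
Share of the genes of each list or family with a STAT5 peak within 1 kb of an end (points), with exact 95% intervals (bars, counting error only) and the share of all protein-coding genes (4.76%, line); open points are lists with no marked gene. Cytokine receptors, feedback inhibitors and interferon response genes stand at the top with 32.4%, 31.2% and 30.6%.

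Starts near the start of another gene had a higher marked share than lone starts. Of 2129 starts with another start within 2 kb, 179 were marked (8.41%, 7.26 to 9.67). Of 14072 starts with no other gene end within 2 kb, 507 were (3.60%, 3.30 to 3.92). Starts with only far ends nearby were like the latter, with 33 of 918 (3.59%, 2.49 to 5.01). A start with another start nearby is within reach of peaks at either of them. Far ends with a start within 2 kb were marked in 2.10% of cases, and those with no other end within 2 kb in 0.550%.

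There were 5103 pairs of ends of different genes at most 2 kb apart, and a single peak lay within 1 kb of both ends in 143 (2.8%). Pairs of starts were touched in 86 of 1092 cases (7.88%, 6.35 to 9.63), a start with a far end in 22 of 1134 (1.94%, 1.22 to 2.92) and pairs of far ends in 3 of 1158 (0.259%, 0.0535 to 0.755). Pairs of starts at most 500 bp apart were touched in 8.72% of cases.

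**Figure D3:**
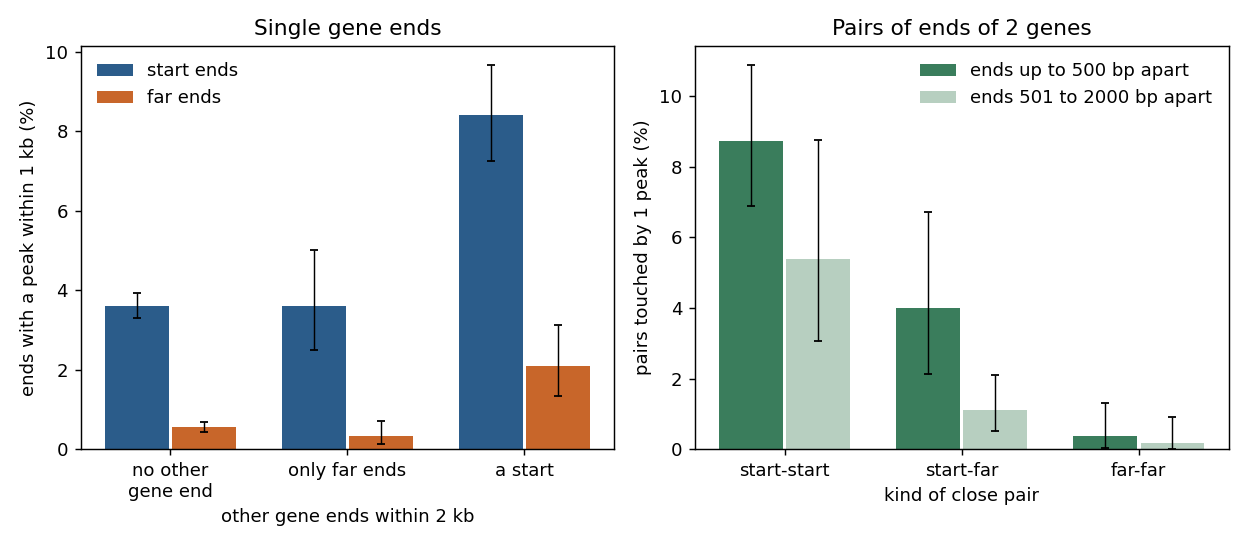
Left, share of start ends (blue) and far ends (orange) with a peak within 1 kb, by the other gene ends within 2 kb; right, share of close pairs of ends touched by 1 peak, by kind of pair and by distance between the ends. Bars carry exact 95% intervals; starts near another start reach 8.41% against 3.60% for lone starts, and pairs of starts stand above the other kinds of pair.

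Peaks that touched the ends of 2 genes numbered 138, and 1 touched 3 (LOC115486880, Rspry1 and Psme3ip1), so 139 of 940 members (14.8%, 12.6 to 17.2) had more than 1 gene. Of the 139, 84 joined starts, with a median gap of 130.5 bp between them, 20 joined a start and a far end and 3 joined far ends. The other 32 had an end of unassigned side or were the peak with 3 genes. The median width of all 139 was 273 bp.

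Several shared peaks joined the start of a signalling or housekeeping gene to a neighbour with another role. Ripk1 and Serpinb6a, which encodes a protease inhibitor, overlap by their starts, and 1 peak lay 383 bp inside the one and 186 bp inside the other. Psme2, a proteasome activator gene, and Rnf31, a subunit gene of the linear ubiquitin ligase, shared a peak 510 and 102 bp outside their starts. Mvk and Mmab, of mevalonate and cobalamin metabolism, shared one 363 bp outside and 172 bp inside their starts.

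A DNA ligase gene, Lig4, and its neighbour Abhd13 had starts 37 bp apart with 1 peak between. The chaperonin gene Cct5 shared one with Atpsckmt, the endoplasmic reticulum chaperone gene Hsp90b1 with Ttc41, and the tRNA synthetase gene Yars with S100pbp. Polr2b, which encodes a subunit of RNA polymerase II, shared a peak with Noa1, and the proteasome gene Psmc2 with Dnajc2; the sides of Noa1 and Dnajc2 were not assigned.

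Other peaks lay near the far end of a gene and an end of its neighbour. A peak at place 245 (chr14:55603873-55604310) lay 106 bp inside the start of Irf9 and 417 bp beyond the far end of Rnf31. The peak of Psmb8, 13 bp inside its start, was also 983 bp beyond the far end of Tap1. One peak (chr16:91405663-91406001) stood between interferon and IL10 receptor genes. It lay 243 bp beyond the far end of Ifnar2 and 325 bp outside an end of Il10rb whose side was not assigned. The pairs of far ends were Git1 with Trp53i13, Pilra with Zcwpw1, and Cap1 with Ppt1.

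Marked genes also stood next to each other without sharing a peak. There were 174 runs of neighbouring marked genes: 153 of 2 genes, 19 of 3 and 2 of 4. They held 371 of the 1037 marked genes. Of all 21779 protein-coding genes 4.76% were marked. How many runs that share would give by itself was not computed, so whether marked genes cluster was not tested. Of the runs of 2, 115 shared a peak and 38 did not. The interferon-linked run Parp14, Dtx3l, Parp9 and Kpna1 held 4 peaks over 205.2 kb, one of them (chr16:35938880-35939166) 4 bp inside the start of Dtx3l and 553 bp inside Parp9. The other run of 4 was Micos13, Rpl36, Lonp1 and Catsperd, with 2 peaks.

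Receptor genes stood in several runs. Il1rl1, Il18r1 and Il18rap held 2 peaks, one 212 bp inside the start of Il18r1 and 346 bp beyond the far end of Il1rl1, and one 14 bp outside that of Il18rap. Il7r stood between Capsl and Spef2, each with a peak of its own, and the 3 genes spanned 312.9 kb. Csf2rb2 and Csf2rb were neighbours with separate peaks, as were Rag1 and Traf6, Bcl2 and Kdsr, and Socs1 and Tnp2. Gm12250, Igtp and Irgm2, genes of interferon-inducible GTPases, held 3 peaks in 38.9 kb. Serpina3f, Serpina3g and Serpina3i held 3 in 55.0 kb. In such families of similar copies the placement of reads is uncertain.

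Both ends were marked in 20 genes, in 13 of them by different peaks and in 7 by 1 peak across a short gene. The longest of the 13 were Dcps, Slc37a3, Ifnar2 and Nmi, from 51574 to 24992 bp. Ifnar2 had its peaks 215 bp inside its start and 243 bp beyond its far end. Aff1 was the single gene with 3 members, and 41 genes had 2.

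Members did not stand apart in width. Their median was 296 bp (quartiles 239 and 382, range 193 to 1195) and that of the other 4961 peaks 295 bp (235 and 388). Peaks of at least 500 bp made up 9.79% of members (7.96 to 11.9) and 10.7% of the others (9.88 to 11.6). The key of the deposited order is unknown. Cut into 5 equal parts in that order, the peaks were members in 16.2%, 13.7%, 14.8%, 16.1% and 18.8% of cases, and the intervals of the second part (11.8 to 15.8) and the last (16.6 to 21.2) do not overlap.

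Marked genes more often had further peaks away from their ends. A peak that was no member lay inside the gene or within 20 kb in 298 of 1037 marked genes (28.7%, 26.0 to 31.6) and in 3061 of 20742 unmarked ones (14.8%, 14.3 to 15.2). Marked genes were also longer, with a median of 21468 bp against 17052 bp, and the part of length in this difference was not tested. Among autosomes the share of marked genes ran from 3.18% on 14 to 7.23% on 12. It was 1.04% on X, and none of 256 genes on Y was marked. The X genes included Rlim, Sat1, Ddx3x and Kdm5c. The limit of 1 kb fell between Cyp2j9 (990 bp), Shroom3 (997 bp) and Socs3 (998 bp) inside it and Ptprj (1004 bp), Car12 (1005 bp) and Camsap2 (1006 bp) outside it.

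The STAT site shown in the sequences above was common in the members' promoters. Promoter windows of 300 bases were tabulated for 17492 of the 21779 genes, 21263 windows in all. TTCNNNGAA, which reads the same on both strands, was in 1636 of them (7.69%, 7.34 to 8.06). It was in 204 of the 530 windows that a member overlapped (38.5%, 34.3 to 42.8), and in 184 of the 347 that held a member's midpoint (53.0%, 47.6 to 58.4). Windows without any peak held it in 6.76% of cases. Read the other way, a member overlapped 1.66% of windows with no site, 11.7% with 1 site and 25.6% (16.8 to 36.1) of the 86 windows with more. The 530 overlapped windows belonged to 490 genes and the 347 to 336, and several windows can share a peak and a site. The intervals treat windows as separate. Counted by peak, 165 of 313 members with their midpoint in a window had a site there (52.7%, 47.0 to 58.4).

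Within the overlapped windows the site lay near the peak midpoint. Its density was 4.91 sites per kb within 25 bp of the midpoint, 3.67 from 25 to 50 bp and 1.47 from 50 to 100 bp, against 0.278 in all promoters. In windows with both a midpoint and a site the median distance to the nearest site was 30 bp, and in 73.9% of these windows (66.9 to 80.1) it was within 50 bp. The TTC and GAA triplets with 4 bases between them, the form STAT6 is known to prefer, were in 10.9% of overlapped windows (8.42 to 13.9) and 6.35% of all. With 2 bases between, a form searched after the data were seen, the shares were 8.68% and 7.61%. Neither spacing shows a maximum at the midpoint.

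**Figure D4:**
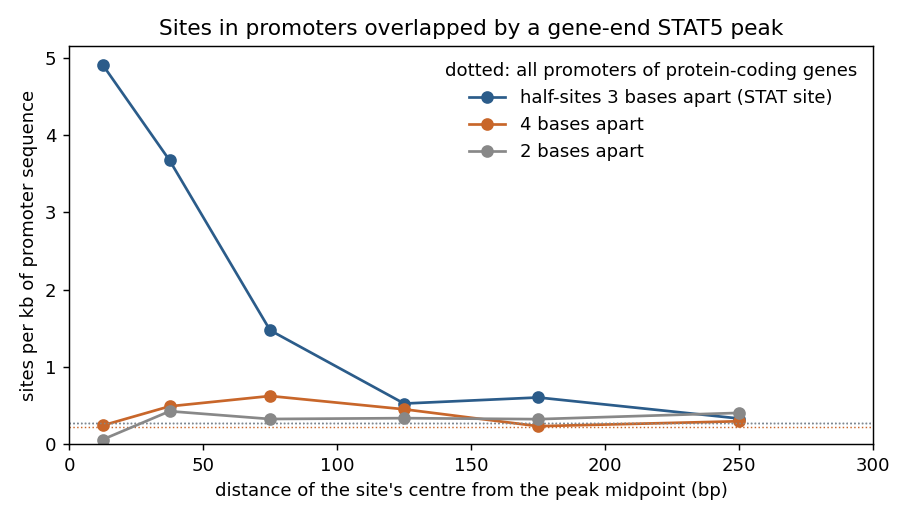
Density of TTC and GAA triplets with 3 (blue), 4 (orange) or 2 (grey) bases between them in the 530 promoter windows overlapped by a member, in sites per kb, by distance in bp of the site's centre from the peak midpoint; points stand at bin centres and dotted lines give the density in all 21263 windows. The 3-base form falls from 4.91 at the midpoint to 0.333 beyond 200 bp, while the other forms stay at or below 0.624.

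Base composition differed slightly, with a median GC content of 59.7% in overlapped windows and 56.3% in all. The site was more frequent in overlapped windows at each GC level: 54.3% against 11.4% of all windows under 50% GC, 40.8% against 8.50% from 50 to 60%, 35.5% against 5.55% from 60 to 70%, and 18.2% against 1.64% above 70%. Of the other letters searched on both strands, GGGCGG was in 318 of the 530 overlapped windows (interval 55.7 to 64.2%) and 46.2% of all, CACGTG in 9.25% and 7.84%, TGACTCA or TGAGTCA in 3.02% and 4.66%, and CACCTG in 15.8% and 19.7%. GGAA, which is also part of many STAT sites, was in 98.7% and 95.7%.

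Early peaks of the deposited order held the site more often than late ones. Of members with their midpoint in a promoter window, 51 of 63 (81.0%, 69.1 to 89.8) had a site in the first of the 5 parts, then 76.0%, 58.2% and 36%, and 17 of 70 (24.3%, 14.8 to 36) in the last. Even the last stood above the 7.69% of all promoters. That share is counted by window, whereas these are counted by peak, and a midpoint can lie in several windows. Members at least 300 bp wide had a site in 62.9% of cases (54.7 to 70.6) and narrower ones in 43.2% (35.5 to 51.2). Members with more than 1 gene had it in 60.3% (47.7 to 72.0) and those with 1 gene in 50.6% (44.2 to 57.0), with overlapping intervals.

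**Figure D5:**
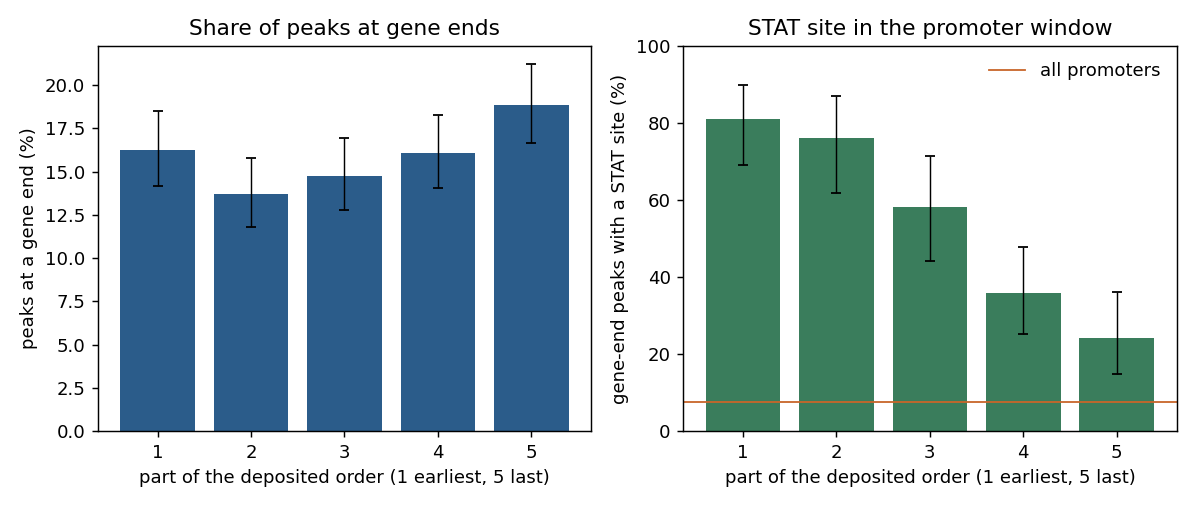
Left, share of peaks that are members in each of 5 equal parts of the deposited order. Right, share of members with their midpoint in a promoter window that have TTCNNNGAA in such a window, counted by peak. Bars carry exact 95% intervals, and the line gives the share in all promoters, counted by window (7.69%). The member share stays between 13.7% and 18.8%, while the site share falls from 81.0% to 24.3%.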

How the data were processed

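One peak list of 1 STAT5 ChIP library was used; the input library was not analysed here. The deposited values are positions in bp: where each named peak starts and ends on build mm10, with no header, score or count. Tools listed in the submitters' processing notes are MACS2, Picard and BWA 0.7.4. Settings, threshold and use of the input were not given. Coordinates are printed from 1. Genes with a start under 3 Mb on any chromosome but Y were left out as carrying positions of other sequences. Sides and starts came from the promoter table, which covers 80.3% of protein-coding genes. Shares carry exact Clopper-Pearson 95% intervals (Python 3.11.15, scipy 1.17.1). With 1 library no test between samples was possible. The members and gene lists were chosen with earlier results of these data known. Named genes were the marked members of these lists, shared peaks and runs with such members, genes with both ends marked by different peaks or 3 peaks, the earliest peaks, peaks on chromosome X or beside the 1 kb limit, and listed promoters with a site. Distance, overlap, width, order, gene naming, joining of peaks within 1 kb and motif spacing were varied. Scripts were tested on simulated peaks and sites. Some listed genes are not reported here. No column of values was left unused.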

Additional observations from a re-analysis of the deposited data

Results flagged for a closer look

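Off the assembled chromosomes, the file listed 7 peaks. They are a signal in data that no comparison above used, since the gene table gives no usable gene ends on those sequences.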

How the results depend on the processing

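No paired analysis was possible because there was 1 ChIP library. Of 317 values recomputed, 38 left the exact interval of the reported share or, for counts, differed by over 1.5 times. Small lists have wide intervals: of 33 lists and families with a marked gene, 6 changed by over 1.5 times at 500 bp, 8 at 2 kb, 2 by any overlap, 18 among the widest and 21 among the earliest peaks. Members numbered 683 at 500 bp and 1303 at 2 kb. At 500 bp, marked genes were 3.53%, the start share 89.9%, touched close pairs 1.82%, B lineage factors 12.5% and glycolysis genes 0. At 2 kb, marked genes were 6.46%, the start share 81.6%, touched pairs 4.29% and peaks with several genes 214. By any overlap, marked genes were 5.08%. Among the 2951 widest peaks, 473 were members, marked genes 2.37%, peaks with several genes 61, touched pairs 1.20% and overlapped promoters with the STAT site 43.7%; receptor signalling genes were 5.71%, chromatin 4.26%, translation 5.0%, cholesterol 3.33%, myeloid 0, ribosomal 1.16% and Zfp genes 3.53%. Among the first 2953 peaks of the order, 442 were members, marked genes 2.22%, peaks with several genes 61, touched pairs 1.20% and site share 53.8%; basal transcription, replication and myeloid genes were 0, translation 5.0%, cholesterol 3.33%, chaperones 3.03%, ribosomal 1.16%, Zfp 3.53% and Tmem genes 1.28%. These use fewer peaks by construction. The 4-base spacing gave 10.9%, and leaving out olfactory and vomeronasal receptors, added after the data were seen, 5.10%. Cytokine receptors, feedback inhibitors, interferon response genes and B lineage factors remained above the share of all genes in every setting, from 3.54 to 11.9 times. These 4 lists were among the highest in the main result, and every setting reused the same peak list. Their staying above is therefore no independent support. Depth is unknown, so a gene without a peak may lie under the threshold.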

Other observations

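Families of interferon-inducible GTPase genes, grouped after their values were seen, were marked in 10 of 19 cases (52.6%, exact 95% interval 28.9 to 75.6). These genes encode proteins of cell-autonomous defence. The peaks lay close to one end in all 10: 89 bp from it in Gbp5, 91 in Gbp7, 29 in Gbp9, 24 in Gbp4, 53 in Irgm1, 95 in Tgtp1, 82 in Tgtp2, 32 in Gm12250, 77 in Igtp and 106 in Irgm2. Each midpoint was outside the gene. Tgtp1 and Tgtp2 are near-identical copies, so their reads may be shared. Other families grouped after their values were seen had small counts, against 4.76% of all genes. Of Serpina3 genes 3 of 10 were marked (6.67 to 65.2%) and of Parp genes 3 of 12 (5.49 to 57.2%). Gimap genes had 2 of 8 (3.19 to 65.1%), Ifi genes 3 of 17 (3.80 to 43.4%), TRIM30 genes 1 of 4 (0.631 to 80.6%) and Slfn genes 0 of 8 (0 to 36.9%). The intervals of Gimap, Ifi, TRIM30 and Slfn genes held the share of all genes.

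Zinc finger promoters with a member held the STAT site as follows. Of 23 Zfp promoter windows that a member overlapped, 16 held TTCNNNGAA (69.6%, 47.1 to 86.8), against 60 of all 401 Zfp windows (15%). Over all windows that a member overlapped the share was 38.5% (34.3 to 42.8). Other lists, with fewer windows, had 5 of 7 for cytokine receptors, 4 of 5 for NF-kB and TNF genes, 4 of 6 for interferon response genes, 1 of 5 for chaperones and 0 of 5 for translation factors. Zfp genes lie in clusters of related copies, and 2 of the windows belong to Zfp473. Zfp429 and Zfp455, both on chromosome 13, hold the same site, TTCCAGGAA, as does Zfp933 on chromosome 4. Zfp65 on chromosome 13 holds its reverse complement, TTCCTGGAA. Both forms of this site together made up 9.16% of all promoter sites. TTCCCAGAA or its reverse complement TTCTGGGAA was in Zfp94, Zfp473, Zfp180, Zfp383 and Zfp84, all on chromosome 7. Those 2 forms made up 15.9% of all promoter sites.

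Other letters, searched after the data were seen, were more frequent in overlapped windows than in all windows. TGACGTCA, the cyclic AMP response element, was in 5.28% (3.54 to 7.55) against 2.23%. It was not densest at the peak midpoint. Within 25 bp it had 1 site, 0.0605 per kb against 0.0783 in all promoters, and from 50 to 100 bp 0.457 per kb. A repeat of GAAA with 2 bases between, as in interferon response elements, was in 7.17% (5.12 to 9.71) against 3.35%. Within 25 bp of the midpoint the repeat had 7 sites, 0.425 per kb against 0.125 in all promoters. The letters between the STAT triplets also varied. TTCCCAGAA with its reverse complement made up 23.6% of sites in windows holding a member's midpoint and 15.9% of all promoter sites. TTCCGAGAA made up 7.88% against 2.43%, and TTCAAAGAA 0.985% against 4.64%.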
